A study of Homo sapiens with 3 samples.

Results

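The 10 genes described here encode sensors of RNA and DNA, the adaptor proteins that pass the sensors' signal on, and enzymes that bind or edit double-stranded RNA (dsRNA). They were chosen by name: RIGI (listed as DDX58 under its older symbol), IFIH1, DHX58, MAVS, STING1 (older symbol TMEM173), TLR3, EIF2AK2, ADAR, ZBP1 and IFI16. All 10 had a transcript cluster annotated with their symbol alone, among 14410 genes with such a cluster. A transcript cluster is the set of array probes that covers 1 gene. For EIF2AK2, 1 further cluster was annotated together with ARL14EP and was not used. Exon arrays were hybridised with total RNA of 3 human cell lines, and each line had 1 array. The colon adenocarcinoma line HT-29, grown in McCoy's 5A medium with 10% fetal bovine serum, had received interferon gamma (IFN-γ) at 200 U/ml for 24 h. The mammary epithelial line MCF10A, which is non-tumorigenic, was kept in DMEM/F12 with 5% horse serum, EGF at 20 ng/ml, hydrocortisone at 500 ng/ml, cholera toxin at 100 ng/ml and insulin at 10 µg/ml. The breast adenocarcinoma line MDA-MB-436 was kept in L-15 medium with 10% fetal bovine serum and without CO2. The labels name no interferon for either mammary line. No HT-29 array without the cytokine was analysed here: line, medium and cytokine cannot be told apart in any comparison with HT-29. Between MDA-MB-436 and MCF10A, line and medium, with its serum and additives, cannot be told apart either.

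Cells recognise viral nucleic acid, and at times their own, through such sensors. RIG-I (the RIGI product), MDA5 (IFIH1) and LGP2 (DHX58) are related RNA helicases of the cytosol; RIG-I and MDA5 signal through MAVS on mitochondria, while LGP2 lacks the signalling domains and modulates the other two. Cytosolic DNA is sensed by cGAS, which signals through STING on the endoplasmic reticulum, and IFI16 is a further DNA-binding sensor. TLR3 detects dsRNA in endosomes, PKR (EIF2AK2) stops translation when it binds dsRNA, ADAR edits adenosines in dsRNA and so limits sensing of the cell's own RNA, and ZBP1 binds Z-form nucleic acid and can trigger cell death. These routes lead to type I interferon, and many of the sensor genes are themselves interferon-stimulated.

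The deposited values are intensities on a linear scale. The background was set at 29.9, which 95% of the values of 228 olfactory receptor genes did not exceed; their highest value was 101. Since n = 1 for each line, replicate spread is unknown, nothing could be tested, and every difference below describes these 3 arrays; their number limits the precision. A gene was counted as different when its intensities differed at least 4-fold (2 on the log2 scale) and the higher one lay above background. Where the lower value was under background, the fold was computed against the background and is given as a lower bound ("at least"). The median log2 difference over all genes was 0.018 with MDA-MB-436 compared to MCF10A, 0.11 with HT-29 compared to MCF10A and 0.076 with HT-29 compared to MDA-MB-436. Quantile normalization moved the median of HT-29 minus MCF10A by -0.12 and median centring moved that of MDA-MB-436 minus MCF10A by -0.11, and single genes moved by more, so a sign that turned with the scaling is given beside its gene. The lines carried most of their marker genes. In HT-29, 7 of 8 intestinal genes were above background, and in MCF10A 4 of 4 measured basal genes. MDA-MB-436 had 8 of 8 mesenchymal genes above background. By this count the lists were not specific to 1 line. Of the mesenchymal genes, MCF10A had 6 above background, while HT-29 had 2. Of the basal genes HT-29 had 3, against 1 for MDA-MB-436. Of the intestinal genes MDA-MB-436 had 3, against 2 for MCF10A. The mesenchymal gene VIM was at 1933 in MCF10A, close to its 2038 in MDA-MB-436. LGALS4, an intestinal galectin gene, was at 2372 in HT-29 and under background in both mammary lines, the basal keratin gene KRT14 was at 3732 in MCF10A and under background in the other lines, and the N-cadherin gene CDH2 was at 708 in MDA-MB-436. The intestinal factor gene CDX2 was at 74.8 in HT-29, under the highest olfactory receptor value, and the intestinal cadherin gene CDH17 at 21.3, under background. CDX2 was also above background in both mammary lines, at 53.2 (MCF10A) and 51.9 (MDA-MB-436). Of 10 leukocyte marker genes, 7 were under background on all 3 arrays, including the pan-leukocyte gene PTPRC at 3.72, 4.16 and 3.05 in HT-29, MDA-MB-436 and MCF10A. The summed intensity of these 10 markers was 4774 in HT-29, of which 4320 came from the lysozyme gene LYZ, 390 in MCF10A and 1314 in MDA-MB-436, of which 1203 came from CD68.

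The sensor genes fell into distinct patterns over the 3 arrays. HT-29 with IFN-γ had the highest value of 7 members, MCF10A of 3 and MDA-MB-436 of 0; after quantile normalization EIF2AK2 was highest in MDA-MB-436. All 10 members were above background in HT-29, 9 in MDA-MB-436 and 8 in MCF10A. The genes RIGI, IFIH1, DHX58, EIF2AK2 and ADAR had the order HT-29, MDA-MB-436, MCF10A from high to low, apart from that change in EIF2AK2. TLR3 was high in HT-29 and nearly equal in the mammary lines. ZBP1 was also highest in HT-29, but under the highest olfactory receptor value there and under background in both mammary lines. The adaptor genes MAVS and STING1 differed little, with MCF10A highest, and IFI16 was highest in MCF10A.

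**Figure D1:**
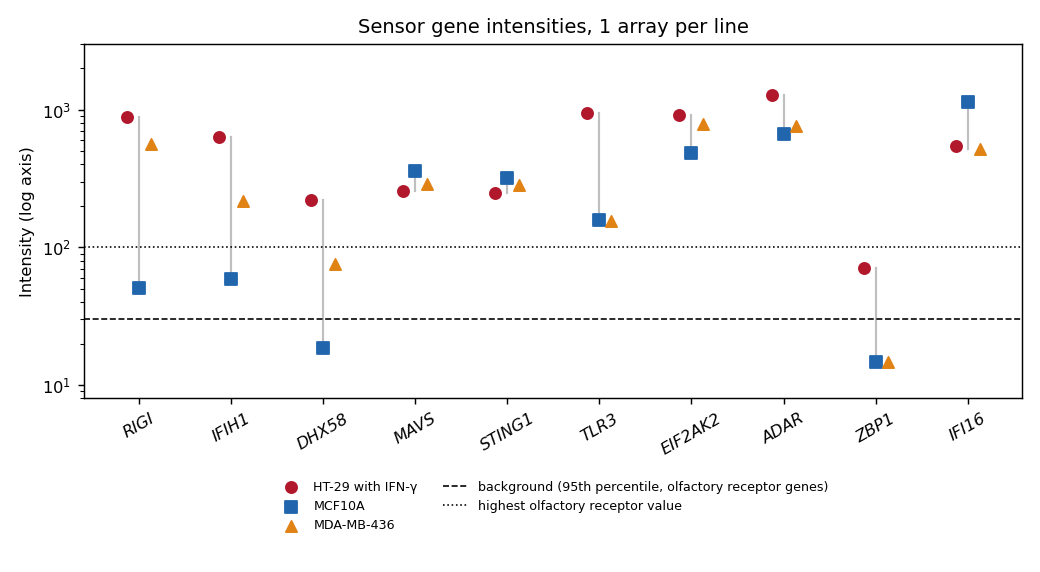
Intensity (log axis) of the 10 sensor genes on the 3 arrays, 1 point per array, with the grey line joining a gene's lowest and highest value, the dashed line at the background of 29.9 and the dotted line at the highest olfactory receptor value of 101. The helicase genes spread over more than 10-fold by measured intensity with MCF10A at the bottom, while MAVS and STING1 lie close together.

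In HT-29 with IFN-γ against MCF10A, 5 of the 10 members were at least 4-fold higher, where 4.34% of all genes were. These were RIGI, IFIH1, DHX58, TLR3 and ZBP1. Of the members, 0 were at least 4-fold lower, against 3.5% of all genes. With values under background set to it, 4 were higher, without ZBP1 (3.42% of all genes). In MDA-MB-436 against MCF10A, 2 of 10, RIGI and DHX58, were at least 4-fold higher (3.65% of all genes) and 0 lower (2.01%). Of these 2, RIGI was left after quantile normalization (3.24% of all genes higher), after median centring (3.40%) or with values under background set to it (2.13%). In HT-29 against MDA-MB-436, 2 of 10, TLR3 and ZBP1, were higher (4.21%) and 0 lower (4.68%). With values under background set to it, 1 was higher, TLR3 (3.59% of all genes). At a 2-fold threshold, 5 of 10 were higher and 1 lower in HT-29 than in MCF10A (10.2% and 10.1% of all genes), 3 were higher and 1 lower with MDA-MB-436 set against MCF10A (8.76% and 8.74%), and 4 were higher and 0 lower with HT-29 set against MDA-MB-436 (11.5% and 11%). The members' median log2 difference was 1.60 for HT-29 against MCF10A (1.09 with values under background set to it), 0.097 for MDA-MB-436 against MCF10A and 0.69 for HT-29 against MDA-MB-436. The 3 comparisons are made from the same 3 arrays, so their counts are not separate evidence. The members were chosen with earlier results of these data known, so the shares of all genes serve only as a scale.

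**Figure D2:**
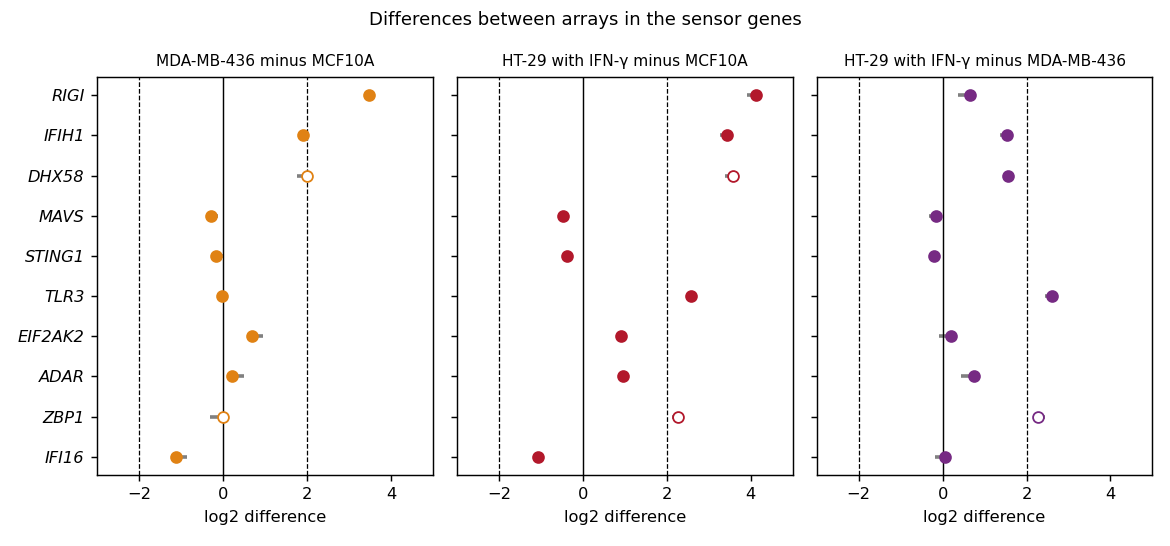
Log2 difference of each sensor gene in the 3 comparisons (positive: the line named first is higher). Points are the deposited values, open where at least 1 of the arrays was under background; grey bars span the deposited, quantile normalized and median centred values, and dashed lines mark 4-fold. The points of RIGI lie past 4-fold against MCF10A in both other lines, and those of TLR3 and ZBP1 only in the comparisons with HT-29 among the 3 shown.

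Promoter sequence is shown for 4 members whose arrays differed in contrasting ways: RIGI and IFIH1, which are helicase genes with the same order of lines, TLR3, high in HT-29 alone, and EIF2AK2, which differed by less than 2-fold. The windows run from 190 bases before the transcript start to base 10 after it, 5′ to 3′ on the gene's strand, from RefSeq (GRCh38.p14). Capitals mark matches to an interferon-stimulated response element (ISRE) type motif, TTTCNNTTTC or its reverse complement GAAANNGAAA, and to a gamma-activated sequence (GAS) type motif, TTCNNNGAA, which is its own reverse complement.
RIGI, minus strand, chr9:32526187-32526386: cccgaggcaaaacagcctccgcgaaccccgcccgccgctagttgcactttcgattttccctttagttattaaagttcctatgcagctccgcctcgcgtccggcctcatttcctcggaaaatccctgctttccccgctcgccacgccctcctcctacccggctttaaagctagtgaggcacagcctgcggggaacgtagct
IFIH1, minus strand, chr2:162318675-162318874: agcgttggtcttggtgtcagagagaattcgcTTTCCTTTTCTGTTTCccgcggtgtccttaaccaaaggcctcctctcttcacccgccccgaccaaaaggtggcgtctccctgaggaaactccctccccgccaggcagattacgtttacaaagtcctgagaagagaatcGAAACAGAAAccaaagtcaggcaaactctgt
TLR3, plus strand, chr4:186068966-186069165: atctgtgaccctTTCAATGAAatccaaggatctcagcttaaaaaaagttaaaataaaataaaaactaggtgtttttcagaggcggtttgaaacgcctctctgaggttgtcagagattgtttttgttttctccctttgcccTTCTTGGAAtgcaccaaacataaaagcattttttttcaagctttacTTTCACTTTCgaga
EIF2AK2, minus strand, chr2:37156971-37157170: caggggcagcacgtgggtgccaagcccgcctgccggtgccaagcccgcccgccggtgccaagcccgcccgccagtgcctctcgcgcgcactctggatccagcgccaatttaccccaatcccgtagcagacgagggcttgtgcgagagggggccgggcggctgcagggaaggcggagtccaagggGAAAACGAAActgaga
The promoter table had entries for 7 of the 10 members, 10 windows in all, each from 250 bases before to 50 after the start, and was searched over that length. The ISRE-type motif was found in 3 of the 7 genes, IFIH1, TLR3 and EIF2AK2. By window, it was in 3.57% of all 35116 windows of the table and in 3.14% of the 16613 windows of the genes compared. A count of genes and a share of windows are unlike units, since some genes have several windows. These 3 genes have 1 window each, so by window the ISRE-type motif was in 3 of the members' 10. In IFIH1 it matched at -159 and -153 on the forward strand, where the matches overlap, and at -21 on the reverse strand. In TLR3 it matched at -4 on the forward strand and in EIF2AK2 at -6 on the reverse strand, both across the transcript start. The GAS-type motif was found in 1 of the 7, TLR3, at -178 and -50. By window, it was in 1 of the members' 10, in 7.66% of all windows and in 6.95% of those of the genes compared. In the windows of RIGI, MAVS, ADAR and IFI16 neither run of letters was present. A match is a run of letters and no evidence of binding.

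**Figure D3:**
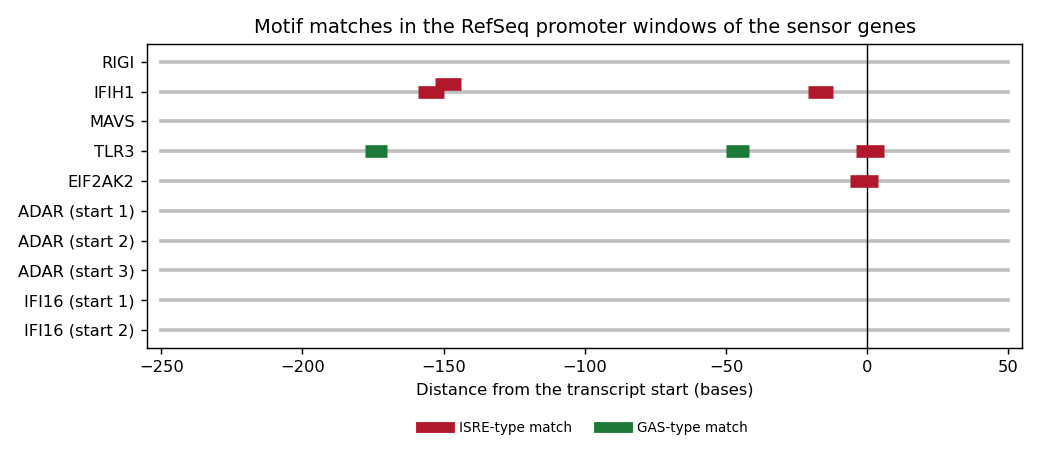
Position, in bases from the transcript start (vertical line), of ISRE-type and GAS-type motif matches in the RefSeq windows of the 7 members with an entry; ADAR has 3 annotated starts and IFI16 has 2. ISRE-type matches lie at the start of TLR3 and EIF2AK2 and at 3 places in IFIH1, of which the overlapping pair is drawn offset.

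RIGI, the gene of the helicase that binds short RNA with a 5′ triphosphate, was at 879 in HT-29 with IFN-γ, 563 in MDA-MB-436 and 50.5 in MCF10A. MCF10A stood apart from the other lines, which were near each other. The RNA is that of whole cultures, so more expressing cells and more RNA per cell cannot be told apart. The value was 17.4-fold higher in HT-29 than in MCF10A and 11.2-fold above MCF10A in MDA-MB-436, and 1.56-fold higher in HT-29 than in MDA-MB-436. Among 10174 genes whose higher value was above background, 1.56% were as far above MCF10A in HT-29 as RIGI, and 1.69% of 10308 were in MDA-MB-436. A difference as large as that between HT-29 and MDA-MB-436, in either direction, was seen in 47.7% of 10531 genes. The window of RIGI held no match to either motif.

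IFIH1, the gene of MDA5, which binds long dsRNA, was at 633 in HT-29, 218 in MDA-MB-436 and 58.8 in MCF10A. Here MDA-MB-436 lay between the other lines, not beside HT-29. The value was 10.8-fold higher in HT-29 than in MCF10A, 2.90-fold higher in HT-29 than in MDA-MB-436, and 3.71-fold above MCF10A in MDA-MB-436, just under the 4-fold threshold. DHX58, the gene of LGP2, had a similar spacing by measured intensity, at 222 in HT-29, 75.01 in MDA-MB-436 and 18.7 in MCF10A. The MCF10A value was under background and the MDA-MB-436 value under the highest olfactory receptor value. DHX58 was at least 7.42-fold higher in HT-29 than in MCF10A and 2.96-fold higher in HT-29 than in MDA-MB-436. In MDA-MB-436 against MCF10A its measured fold of 4.02 passed the threshold, but the bound is at least 2.51-fold, and the call was lost under quantile normalization (log2 difference 1.76) and median centring (1.90). The order HT-29, MDA-MB-436, MCF10A held for all 3 helicase genes under both scalings.

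The MDA-MB-436 value thus sat closest to HT-29 for RIGI and lower for IFIH1 and DHX58: HT-29 exceeded MDA-MB-436 by 0.64, 1.54 and 1.56 on the log2 scale in these genes. Whether the helicase genes differ from each other in this respect was not tested, since there is 1 array per line. The list counts here and below stand beside these shares of all genes. In HT-29 against MCF10A, 4.34% were at least 4-fold higher and 3.5% lower. The shares were 3.65% and 2.01% for MDA-MB-436 against MCF10A, and 4.21% and 4.68% for HT-29 against MDA-MB-436. Of 16 measured cofactors of RNA sensing, 1 was at least 4-fold higher in HT-29 than in MCF10A and 0 lower (median log2 difference 0.072), and 1 was higher with MDA-MB-436 set against MCF10A (median -0.33). In both it was DDX60, a helicase gene reported to assist RIG-I, at 514, 135 and 18 in HT-29, MDA-MB-436 and MCF10A, and so above MCF10A by at least 17.2-fold for HT-29 and at least 4.53-fold for MDA-MB-436. With HT-29 set against MDA-MB-436, 0 of the 16 passed (median 0.25), and 1 was counted after median centring. The ubiquitin ligase genes TRIM25 and RNF135, whose products act on RIG-I, did not pass 4-fold. TRIM25 was at 1785 in HT-29, 492 in MDA-MB-436 and 608 in MCF10A. RNF135, which encodes Riplet, was at 115, 141 and 272 in the same order, with MCF10A highest.

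MAVS, the mitochondrial adaptor gene on which RIG-I and MDA5 converge, was at 258 in HT-29, 289 in MDA-MB-436 and 357 in MCF10A. The order was the reverse of that of the helicase genes, over a narrow range. The highest value was 1.38 times the lowest, and a difference as large as that between HT-29 and MCF10A was seen in 55.6% of genes. STING1, the adaptor gene of the cGAS route, was at 247, 282 and 319 in the same lines. It followed MAVS in order, with the highest value 1.29 times the lowest, and 63.2% of genes differed as much between HT-29 and MCF10A. Both adaptor genes were above background on every array. The sign of their differences did not turn under either scaling, although the STING1 difference of -0.18 between MDA-MB-436 and MCF10A shrank to -0.0092 after quantile normalization.

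Downstream of the adaptors, 19 kinases, adaptors and transcription factors were measured. Of these, 2 exceeded MCF10A at least 4-fold in HT-29 and 0 were lower (median 0.046), 1 was higher with MDA-MB-436 set against MCF10A (median -0.32), and 1 was higher in HT-29 than in MDA-MB-436 (median 0.68). The factor gene IRF7, which amplifies interferon production, was at 553 in HT-29, 117 in MDA-MB-436 and 58.8 in MCF10A, 9.41-fold higher in HT-29 than in MCF10A and 4.71-fold higher than in MDA-MB-436. IFIT3, an interferon-induced gene on this list because its product has been described as bridging MAVS and TBK1, was at 2479, 705 and 28 in the same order, above MCF10A by at least 82.9-fold for HT-29 and at least 23.6-fold for MDA-MB-436. The kinase gene TBK1 was at 231, 139 and 224, and IRF3, the factor gene that TBK1 activates, at 424, 207 and 311. Neither passed 4-fold in any comparison.

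IFNB1, the type I interferon gene that these routes switch on, was under background on all 3 arrays, at 3.41 in HT-29, 1.06 in MDA-MB-436 and 1.08 in MCF10A. Of the 7 measured interferon and interferon receptor genes, 0 passed 4-fold with the higher value above background in any comparison. Of the 7, 4 were under background on all 3 arrays. The receptor genes IFNAR1 and IFNAR2 were above background on every array. IFNAR1 was at 164 in HT-29, 304 in MDA-MB-436 and 235 in MCF10A, and IFNAR2 at 160, 237 and 138. Among 7 factors of interferon response, 2 exceeded MCF10A 4-fold in HT-29 and 1 did in MDA-MB-436, with 0 lower in either line (medians 0.94 and 0.25). The shared one was IRF9, the DNA-binding part of the ISGF3 complex, at 1345 in HT-29, 916 in MDA-MB-436 and 80.5 in MCF10A. IRF1 was at 3961, 326 and 94.9 in the same order.

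TLR3, the endosomal dsRNA receptor gene, was at 952 in HT-29 with IFN-γ, 156 in MDA-MB-436 and 159 in MCF10A. The mammary lines were nearly equal and HT-29 stood above both. TLR3 was 5.99-fold higher in HT-29 than in MCF10A and 6.09-fold higher than in MDA-MB-436. The mammary lines differed 1.02-fold, and the sign of that difference turned under quantile normalization. Of the genes compared, 4.26% were as far above MCF10A in HT-29, and 3.67% as far above MDA-MB-436. The window of TLR3 was the one among the members' windows with matches to both motifs. TLR7 and TLR8, the endosomal receptor genes for single-stranded RNA, were under background on all 3 arrays.

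Of 9 measured endosomal receptor and adaptor genes, TLR3 itself not included, 0 exceeded MCF10A at least 4-fold in HT-29 and 1 was lower, the co-receptor gene CD14, at 38.9 against 156 (4.01-fold). CD14 was no longer counted after quantile normalization. UNC93B1, which encodes the transport chaperone of endosomal Toll-like receptors, was at 507 in HT-29, 99.7 in MDA-MB-436 and 493 in MCF10A. It was 5.08-fold higher in HT-29 than in MDA-MB-436 and 4.94-fold lower in MDA-MB-436 than in MCF10A. Over the list the median was 0.039 for HT-29 against MCF10A, -0.71 for MDA-MB-436 against MCF10A (-0.023 with values under background set to it) and 0.48 for HT-29 against MDA-MB-436, with UNC93B1 the 1 gene past 4-fold in the latter 2 comparisons. TICAM1, the adaptor gene of TLR3, was at 140 in HT-29, 100.1 in MDA-MB-436 and 160 in MCF10A, and did not pass 4-fold.

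EIF2AK2, the gene of the kinase PKR, was at 912 in HT-29, 790 in MDA-MB-436 and 488 in MCF10A. All 3 values were well above background and within 2-fold of each other. EIF2AK2 was 1.87-fold higher in HT-29 than in MCF10A and 1.62-fold above MCF10A in MDA-MB-436. The 1.15-fold difference between HT-29 and MDA-MB-436 turned its sign under quantile normalization. EIF2S1, which encodes the translation factor subunit that PKR phosphorylates, was at 1257 in HT-29, 1438 in MDA-MB-436 and 1504 in MCF10A. PPP1R15A, whose product directs a phosphatase to that subunit, was at 813, 324 and 87.7, 9.27-fold higher in HT-29 than in MCF10A.

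ADAR, the gene of the RNA-editing enzyme ADAR1, was at 1279 in HT-29, 764 in MDA-MB-436 and 662 in MCF10A. HT-29 was highest and the mammary lines were close. ADAR was 1.93-fold higher in HT-29 than in MCF10A, 1.67-fold higher than in MDA-MB-436, and differed 1.15-fold between the mammary lines. A difference as large as that between HT-29 and MCF10A was seen in 30.5% of genes for ADAR and in 32.1% for EIF2AK2. ADAR has a constitutive and an interferon-inducible transcript form. The values are per gene, so the forms could not be told apart here.

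The list of dsRNA effectors and cofactors had 12 measured genes besides the members, some with far larger differences. It also holds genes not defined by dsRNA binding, among them MX1, RIPK3 and MLKL. Of the 12, 9 exceeded MCF10A at least 4-fold in HT-29 and 0 were lower (median log2 difference 3.28). Over all genes, 4.34% were higher and 3.5% lower, and the list was chosen with earlier results of these data known. In MDA-MB-436 against MCF10A, 5 were higher and 1 lower (median 0.53), where 3.65% and 2.01% of all genes were. In HT-29 against MDA-MB-436, 7 were higher and 0 lower, where 4.21% and 4.68% of all genes were. The median there was 2.30, or 1.90 with values under background set to it. That floor left 8 higher in HT-29 than in MCF10A and 6 higher than in MDA-MB-436, with 0 lower in either. It left 3 higher and 1 lower with MDA-MB-436 set against MCF10A. OAS2, which makes the second messenger that activates RNase L, was at 1619 in HT-29, 102 in MDA-MB-436 and 12.4 in MCF10A, at least 54.1-fold higher in HT-29 than in MCF10A. OASL, an inactive relative that binds RIG-I, was at 998, 673 and 22.01, and exceeded MCF10A at least 22.5-fold in MDA-MB-436. In OASL the MDA-MB-436 value was near that of HT-29, whereas in OAS2 it was 15.8-fold lower than that of HT-29. The RNA-binding antiviral gene IFIT1 was at 680 in HT-29, 462 in MDA-MB-436 and 12.9 in MCF10A, and IFIT2 at 596, 191 and 8.16 in the same order. MDA-MB-436 exceeded MCF10A at least 15.5-fold in IFIT1 and at least 6.38-fold in IFIT2. IFIT5 had another order, at 685, 50.9 and 108, 13.5-fold higher in HT-29 than in MDA-MB-436. MX1, an antiviral GTPase gene, was at 829, 115 and 14.8, at least 27.7-fold higher in HT-29 than in MCF10A. Related genes of the OAS and IFIT families can share probe signal.

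ZBP1, the sensor gene for Z-form nucleic acid, was at 70.6 in HT-29 and under background in the mammary lines, at 14.8 in MCF10A and 14.7 in MDA-MB-436. The HT-29 value was itself below the brightest olfactory receptor signal (101), and this is the dimmest of the members' signals that were counted. ZBP1 was at least 2.36-fold higher in HT-29 than in either mammary line, and its measured folds of 4.77 and 4.81 rest on values under background. RIPK3, the kinase gene whose product ZBP1 recruits, was at 59.9 in HT-29, 6.94 in MDA-MB-436 and 7.04 in MCF10A, at least 2.001-fold higher in HT-29 than in either mammary line. MLKL, the gene of the pore-forming protein that RIPK3 activates, had another order, at 368, 82.3 and 379. It was 4.61-fold lower in MDA-MB-436 than in MCF10A.

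IFI16, the nuclear and cytosolic DNA sensor gene, was at 543 in HT-29, 519 in MDA-MB-436 and 1131 in MCF10A. It was the one member with MCF10A clearly above both other arrays. IFI16 was 2.08-fold lower in HT-29 and 2.18-fold lower in MDA-MB-436 than in MCF10A. Of the genes compared, 13.3% were as far below MCF10A in HT-29 and 9.56% in MDA-MB-436. The 1.05-fold difference between HT-29 and MDA-MB-436 turned its sign under quantile normalization. The other genes of its HIN-200 family that were measured, AIM2, PYHIN1 and MNDA, were under background on all 3 arrays, with AIM2 at 16.9 in HT-29, 3.58 in MDA-MB-436 and 3.01 in MCF10A.

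Of 15 measured DNA sensors and cofactors, 0 were at least 4-fold higher or lower in HT-29 than in MCF10A (median -0.028), and 1 was higher with MDA-MB-436 set against MCF10A and 0 lower (median -0.041). In HT-29 against MDA-MB-436, 1 was lower (median 0.17). CGAS, whose product makes the STING ligand cGAMP, was at 241 in HT-29, 356 in MDA-MB-436 and 193 in MCF10A. The gene past 4-fold was ENPP1, which encodes an enzyme that degrades cGAMP, at 161 in MDA-MB-436 and under background in the other lines, at 18.3 in HT-29 and 21.9 in MCF10A. ENPP1 exceeded each of them at least 5.39-fold in MDA-MB-436. Among 10 genes of nucleic acid clearance, 0 passed 4-fold in HT-29 against MCF10A (median 0.081) and 1 was lower in MDA-MB-436 than in MCF10A (median -0.24). This was the nucleotidase gene NT5C3A, at 737 in HT-29, 35.1 in MDA-MB-436 and 269 in MCF10A. RNASEH2A, the catalytic subunit gene of RNase H2, was 4.08-fold lower in HT-29 than in MDA-MB-436, at 173 against 707, and was not counted after median centring. In that comparison 1 of the 10 was higher, NT5C3A, and 1 lower (median 0.27).

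Of 15 measured negative regulators, 2 were at least 4-fold higher and 1 lower in HT-29 than in MCF10A (median 0.23), and 1 was higher with MDA-MB-436 set against MCF10A (median -0.27). TNFAIP3, the gene of the ubiquitin-editing enzyme A20, was at 92.8 in HT-29, 986 in MDA-MB-436 and 131 in MCF10A. It was 7.54-fold above MCF10A in MDA-MB-436 and 10.6-fold lower in HT-29 than in MDA-MB-436. SIGIRR, an inhibitory receptor gene of the Toll-like and interleukin 1 receptor family, was at 603, 76.3 and 92, 6.55-fold higher in HT-29 than in MCF10A. DUSP4, a MAP kinase phosphatase gene, was 4.21-fold lower in HT-29 than in MCF10A. In HT-29 against MDA-MB-436, 2 of the 15 were higher and 1 lower (median 0.70), with USP15, a deubiquitinase gene, 5.77-fold higher.

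**Figure D4:**
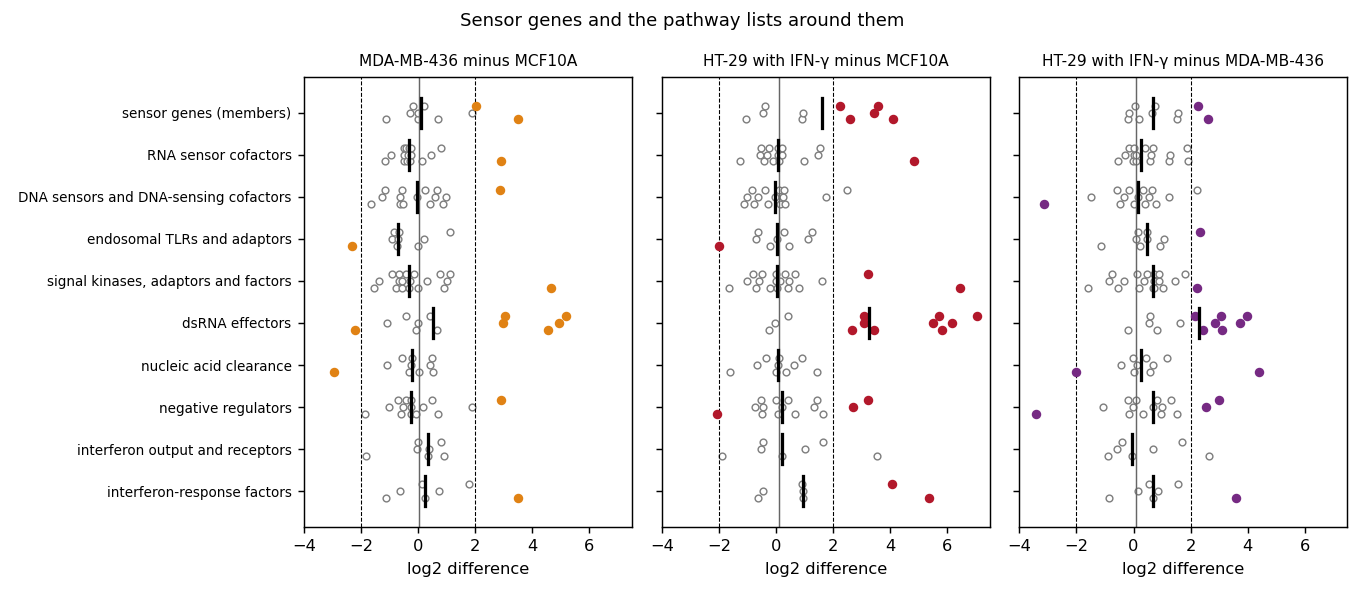
Log2 difference of each measured gene in the sensor set and 9 pathway lists, 1 panel per comparison (positive: the line named first is higher). Filled points passed 4-fold with the higher value above background, thick bars are list medians, the grey line is the median over all genes and dashed lines mark 4-fold. The list of dsRNA effectors and cofactors has the most filled points of the lists, 9 of 12 in HT-29 with IFN-γ against MCF10A. With values under background set to it, 8 were left.

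The genes with the most similar profile were sought among 10709 genes above background on at least 1 array, by the Euclidean distance between the 3 log2 values, each centred on the gene's own mean. They are given for RIGI, IFIH1 and TLR3, which passed 4-fold and were above background on every array; DHX58 and ZBP1 were left out after their values were seen, since their profiles rest in part on values under background. With 3 arrays such likeness is a description of these values. RIGI was nearest to IRF9 (distance 0.063), which was above background on every array. Next were SLC1A1 (0.155) and GALM (0.203), both under background in MCF10A. IFIH1 was nearest to HAPLN3 (0.062), which was under background in MCF10A, and to DTX3L (0.064). DTX3L was at 2389 in HT-29, 820 in MDA-MB-436 and 234 in MCF10A. PLEKHH2 (0.076) followed, also under background in MCF10A. TLR3 was nearest to GPR160 (0.057), which was under background in both mammary lines, and to LURAP1L (0.066). LURAP1L was at 934 in HT-29, 163 in MDA-MB-436 and 165 in MCF10A. FOXA3 (0.080) followed, also under background in both mammary lines.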

How the data were processed

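Biotin-labelled material made from the total RNA of 3 cell lines was put on exon arrays, per the labels' protocols. The authors deposited linear intensity values for 18708 transcript clusters. The build hg19 is named in the submitters' processing notes, while summary, background correction and normalization are not given in the sources used here. Columns do not share a distribution, so they were not quantile normalized in this form. Gene names came from GEO's platform annotation and were updated by gene identifier to RefSeq (GRCh38.p14); of 14733 clusters with 1 symbol, 14705 matched. The brightest cluster of a gene was used. Differences were taken on log2 intensities, and calls needed 4-fold and a higher value above background. Groups are the labelled lines, with 1 array each, so no test was made. Members and lists were chosen with earlier results of these data known, as were the motifs searched. All members were named; pathway list genes were named when among the 3 largest differences past 4-fold in a comparison, or the largest against most of a list, and of the line and leukocyte markers only a few. Also named, after their values were seen, were TRIM25, RNF135, TBK1, IRF3, IFNB1, IFNAR1, IFNAR2, TLR7, TLR8, TICAM1, EIF2S1, CGAS, AIM2, PYHIN1 and MNDA. List genes without a cluster of their own were not analysed here. The settings varied were the scaling (quantile normalization, median centring), the filter (none, or a background at the 99th percentile, 60.6), the threshold (2-fold, 8-fold), a background floor and the median over clusters. Counting was tested on simulated data. The software was pandas 2.3.3 with numpy 2.4.6 on Python 3.11.15, and matplotlib 3.10.9 for figures.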

Additional observations from a re-analysis of the deposited data

How the results depend on the processing

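In MDA-MB-436 against MCF10A, 2 members, RIGI and DHX58, passed 4-fold. The count was 1, RIGI, after quantile normalization, after median centring, with an 8-fold threshold and with values under background set to it, and 4 at 2-fold, where IFIH1 was added as higher and IFI16 as lower. At 8-fold, 1.67% of all genes were higher and 0.92% lower. The shares were 3.24% and 2.12% after quantile normalization, 3.40% and 2.23% after median centring, and 2.13% and 1.70% with that floor. In HT-29 with IFN-γ against MCF10A, 5 members passed, 3 at 8-fold, 4 with the floor, which removed ZBP1, and 5 under both scalings. At 8-fold, 2.30% of all genes were higher and 1.64% lower. The shares were 3.42% and 2.76% with the floor, 4.03% and 3.52% after quantile normalization, and 4.32% and 3.57% after median centring. In HT-29 against MDA-MB-436, 2 passed, TLR3 and ZBP1, against 4 at 2-fold, 0 at 8-fold and 1, TLR3, with the floor. Of all genes, 2.03% were higher and 2.30% lower at 8-fold, and 3.59% and 3.15% with the floor. No filter and the background at the 99th percentile left all 3 counts as they were. The median over clusters could not change a member, since each has 1 cluster. Of 90 other recomputed log2 differences of members, 4 moved by over 1.5-fold, all of DHX58 and ZBP1 and all with the floor, whose construction raises their values under background. After quantile normalization the sign turned for TLR3 between the mammary lines and for EIF2AK2 and IFI16 between HT-29 and MDA-MB-436, none of which had passed 4-fold. Of 81 recounts of pathway lists, 3 moved by over 1.5 times. Calls on DHX58 and ZBP1 are limited by signal near background. No paired analysis was possible because each group had 1 array.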
